A study of Drosophila melanogaster with 30 samples.

Results

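The genes described here encode the enzymes and proteins that make and read methylation of lysine 9 of histone H3 (H3K9) in Drosophila melanogaster: egg, Su(var)3-9, G9a, Su(var)2-5, HP1b, HP1c and Su(var)3-7. Su(var)2-5 (FBgn0003607), whose protein is HP1a, is called HP1a from here on. The genes were chosen by name and are 7 of the 17559 genes in the deposited count table. Nuclear RNA was sequenced in 30 libraries, 3 for each of 10 groups, from nuclei that the labels call mushroom body, the brain centre of olfactory memory. Per the labels' protocols, nuclei were pulled out of crosslinked head homogenate with an anti-FLAG gel, and polyadenylated RNA was selected from them. The series title gives finding target genes of Kdm4B, a histone lysine demethylase, as its aim.

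The groups were activated and naive flies of each of 5 genotypes: the line MB477 with RNA interference (RNAi) against Kdm4B, MB477 without it, the line MB131 with Kdm4B RNAi, MB131 without it, and flies without CsChrimson. CsChrimson is a channel opened by red light that depolarises the neurons carrying it. Activated flies had 5 min of activation and then 10 min of rest, and naive flies had neither. Flies without CsChrimson went through the same steps without this channel. For them activated names the protocol only, and they serve as its control. All flies were raised at 25 °C with 12 h of light a day, and the strain is given as CS10 for 29 of the 30 libraries and not given for 1. The labels do not say which cells MB131 and MB477 drive expression in, which cells carry the FLAG tag, or which line lacked CsChrimson. They also do not say that the 3 libraries of a group came from separate flies, so every p-value below measures the spread between libraries, which may be technical.

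In heterochromatin, the compacted part of the genome around centromeres and on the fourth chromosome of the fly, H3K9 carries methyl groups. Methyltransferases place them, HP1 proteins bind them through a chromodomain, and HP1 in turn recruits further proteins, so that the mark and its readers hold the domain silent. Su(var)3-9, HP1a and Su(var)3-7 were found as suppressors of position-effect variegation, in which a gene moved next to heterochromatin is silenced in some cells and not in others. Kdm4 enzymes remove H3K9 methylation.

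Libraries held 8291599 to 14344348 counts, with a median of 11458759. The 3 naive MB477 libraries stood apart from the rest. On the leading principal component of log2 CPM (counts set relative to the total of their library), which held 26.8% of the variance, they lay at 64.2 to 68.0, and the other 27 libraries at -25.5 to 22.9. Kdm4B itself had 2 to 26 reads a library. A lower level under RNAi was not detectable at this depth in any of the 4 comparisons of RNAi with no RNAi. Markers of Kenyon cells, the neurons of which the mushroom body is built, were present (12 of 12 in every group). Their summed level was 2959 to 3021 CPM in naive MB477 libraries, 3014 to 3155 CPM in activated MB477 libraries, 4515 to 4688 CPM in naive MB477 libraries with RNAi and 4923 to 5185 CPM in naive MB131 libraries. The like sums of naive and activated MB477 hide opposite shifts. The markers sNPF, rut, prt, trio, mub, dac, Dop1R1 and Dop1R2 had their lowest group mean in naive MB477. Those of dnc and Fas2 were highest there and lowest in activated MB477 (dnc 1334 and 670 CPM). For ey and Pka-C1 activated MB477 was the lowest group. Those of other head tissues were abundant too: 10 of 10 muscle markers summed to 8561 to 8679 CPM in naive MB477 libraries and to 2625 to 7148 CPM in the other 27. Photoreceptor markers (11 of 11) ranged over groups from 12320 to 27732 CPM and fat body markers from 12028 to 45847 CPM. Fbp1 of the 8 fat body markers was listed at 0 in naive MB477 libraries with and without RNAi. Germline and dividing cell markers, where the roles of several of these genes are best known, summed to 3.90 to 8.87 CPM. Of these 8, polo was listed at 0 in naive MB477 libraries. The libraries hold RNA from outside the mushroom body. In such bulk samples fewer cells of a type and less RNA per cell cannot be told apart.

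All 7 genes passed the filter on low counts. Levels per kb of merged exons allow for the exon length of a gene only. How far reads of overlapping genes or uneven coverage along a gene enter them was not tested. On this scale HP1a had a level of 46.3 CPM per kb over the 30 libraries, HP1c 16.4, Su(var)3-7 12.96 and HP1b 10.5. G9a had 10.1, egg 6.06 and Su(var)3-9 2.12 CPM per kb. HP1a, the main reader of the mark, thus stood at the 84.5th percentile of 11241 genes on this scale, and Su(var)3-9, the enzyme that gave the gene class its human name SUV39, at the 16.7th. On this scale the writers egg and Su(var)3-9 lay below each of the 3 readers and Su(var)3-7 in the means of all 10 groups. G9a and HP1b were close, with G9a above HP1b in 4 of the 10 group means. The highest group mean was 2.12 times the lowest for Su(var)3-9, 1.65 for G9a, 1.57 for HP1c, 1.39 for HP1b, 1.38 for egg, 1.26 for HP1a and 1.16 for Su(var)3-7.

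**Figure D1:**
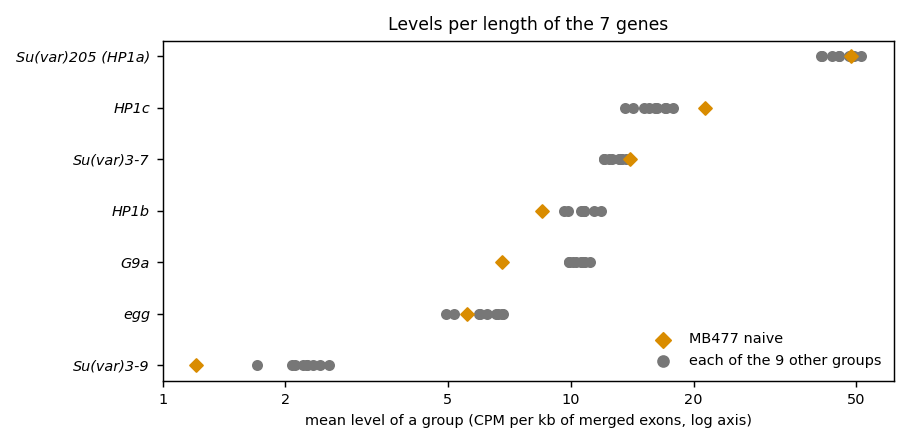
Mean level of each group in CPM per kb of merged exons (log axis) for the 7 genes, with naive MB477 flies as diamonds and each of the 9 other groups as a circle. HP1a is the highest (46.3 CPM per kb over all libraries) and Su(var)3-9 the lowest (2.12); for G9a, HP1b and Su(var)3-9 the naive MB477 mean lies below the means of the other groups, and for HP1c and Su(var)3-7 above them.

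Whether a gene's level differed anywhere among the 10 groups was tested in a single edgeR quasi-likelihood model of all libraries, with Benjamini-Hochberg adjustment over 11457 genes. Of the 7 genes 5 passed, against 81.5% of all tested genes: G9a (adjusted p = 1.73e-12), HP1a (adjusted p = 0.00124), egg (adjusted p = 0.00136), HP1c (adjusted p = 0.00199) and Su(var)3-9 (adjusted p = 0.0330). Su(var)3-7 (adjusted p = 0.0704) and HP1b (adjusted p = 0.0958) did not. HP1b passed with DESeq2 (adjusted p = 0.0441) and without replicate 2 of naive MB131 (adjusted p = 0.0491). Su(var)3-7 passed with library totals in place of TMM scaling (adjusted p = 0.0129). It also passed without replicate 3 of naive MB477 (adjusted p = 0.0321) and without naive replicate 2 (adjusted p = 0.0399) or 3 (adjusted p = 0.0460) of the flies without CsChrimson. Without the naive MB477 libraries 2 of the 7 passed, HP1a (edgeR adjusted p = 0.00129) and egg (adjusted p = 0.00183), against 67.3% of all genes. G9a then had an adjusted p of 0.269, HP1c 0.171 and Su(var)3-9 0.662. Su(var)3-9 was not called either without replicate 2 (adjusted p = 0.0933) or 3 (adjusted p = 0.222) of naive MB477 or replicate 3 of activated MB477 (adjusted p = 0.0532). Over 17 comparisons between groups or between responses, the median absolute log2 fold change of the 7 genes was below that of all genes in 16. These comparisons share libraries, and the genes were not matched to all genes by read depth. In the 12 comparisons that do not involve naive MB477 flies, 5 of 84 tests of these genes passed, where 6.06% to 32.2% of all genes were called. In the 5 that do, 19 of 35 passed, where 46.7% to 61.1% of all genes were called.

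**Figure D2:**
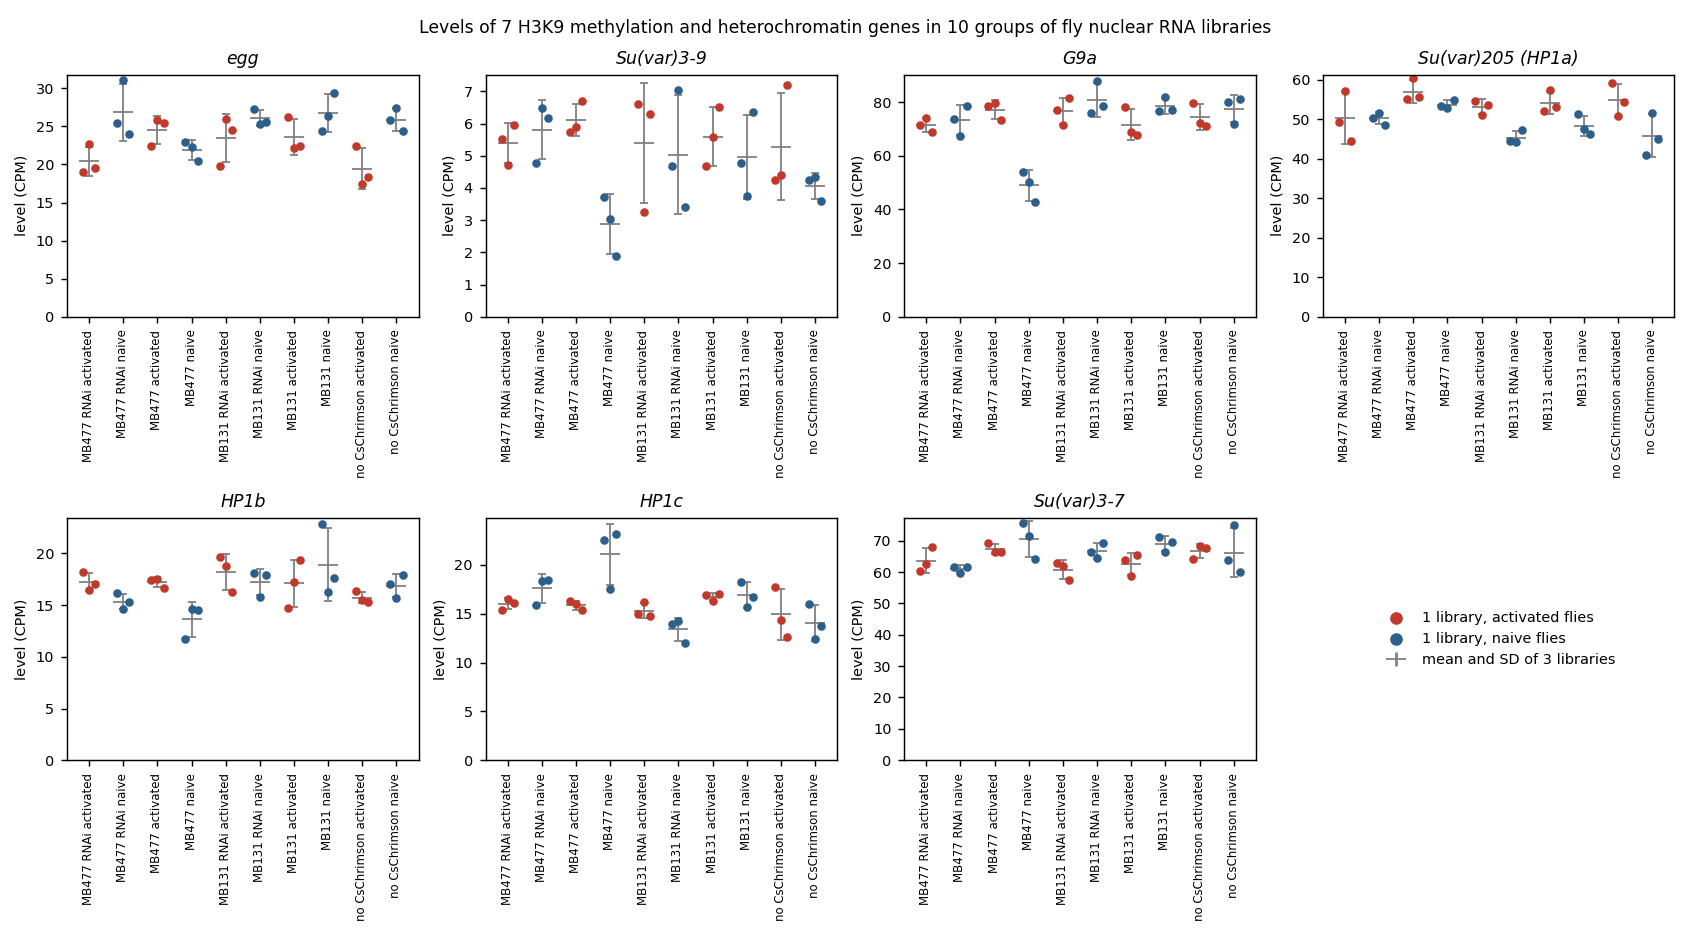
Level of each of the 7 genes in CPM (vertical axis, from 0) in every library, by group (horizontal axis), with activated libraries in red and naive ones in blue and the mean and SD of 3 libraries in grey. G9a in naive MB477 libraries (42.7 to 53.8 CPM) lies below each of the other 27 libraries (67.4 CPM or more), while the groups of Su(var)3-7 overlap widely.

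G9a (FBgn0040372; X, 245978 to 254650, plus strand, dm6; 9 merged exons), a methyltransferase of H3K9 that in flies is known for roles in learning and memory and is dispensable for viability, had the clearest pattern. It stood at 78.6, 79.6 and 73.2 CPM in the 3 activated MB477 libraries, against 53.8, 50.4 and 42.7 CPM in the 3 naive ones. No activated library overlapped a naive one. The difference was 1.57-fold (95% interval 1.41 to 1.75; log2 0.65 ± 0.08, SE; edgeR adjusted p = 3.53e-12). Naive MB477 flies with Kdm4B RNAi had 73.7, 67.4 and 78.4 CPM, 1.49-fold the level without RNAi (log2 0.58 ± 0.08; edgeR adjusted p = 3.22e-10). Naive MB477 libraries were also below naive MB131 libraries, which held 76.8, 81.9 and 77.0 CPM (log2 -0.68 ± 0.08; edgeR adjusted p = 7.08e-13). Every one of these calls held in each alternative run, with any single library left out. The 3 comparisons share the same 3 naive MB477 libraries, so they are not separate support. In them 59.5% to 61.1% of all genes were called. In the other 9 groups the mean of G9a ran from 71.5 ± 2.71 CPM in activated MB477 flies with RNAi to 80.8 ± 6.34 CPM in naive MB131 flies with RNAi (SD, n = 3), and each group's range overlapped that of its neighbours in the order of means. The other 4 activation comparisons gave log2 fold changes of -0.14 to -0.04, none of which passed the test.

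Su(var)3-9 (FBgn0263755; 3R, 15259864 to 15263458, minus strand), the methyltransferase of pericentric heterochromatin, was the least covered of the 7, with 16 to 92 reads a library. It had 5.75, 5.90 and 6.69 CPM in activated MB477 libraries, against 3.73, 3.04 and 1.89 CPM in naive ones, without overlap. The fold difference was 2.09 (95% interval 1.42 to 3.08; log2 1.06 ± 0.28, SE; edgeR adjusted p = 7.07e-04). With RNAi, naive MB477 libraries had 4.78, 6.49 and 6.16 CPM, a log2 change of 0.98 ± 0.28 against no RNAi (edgeR adjusted p = 0.00183). Naive MB477 flies were below naive MB131 flies, which had 4.76, 3.75 and 6.35 CPM, by a log2 difference of -0.76 ± 0.29 (edgeR adjusted p = 0.0188). This call was lost without replicate 3 of naive MB477 (adjusted p = 0.127) or replicate 3 of naive MB131 (adjusted p = 0.145). In the other 4 genotypes the activation change ran from -0.10 to 0.38 on the log2 scale and did not pass, with intervals reaching from 0.647-fold to 1.89-fold.

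The start of Su(var)3-9 is also the start of 2 of the 3 annotated transcripts of eIF2gamma, which encodes a subunit of translation initiation factor 2. The first exon of the other transcript begins 521 bp further on. In the annotation, 352 bp of exon on the same strand belong to both genes, 14.75% of the exon length of Su(var)3-9. How reads in the shared exons were counted is not given in the sources used here. The last exon of Su(var)3-9, from 1561 to 3595 bp after the start, lies in an intron of eIF2gamma on the same strand. In nuclear RNA, reads of unspliced eIF2gamma there could not be told from reads of Su(var)3-9. How much they add to the counts of Su(var)3-9 was not tested. eIF2gamma was called with Su(var)3-9 in some comparisons and not in others. In MB477 it rose with activation, to 64.6 CPM in activated flies against 47.7 CPM in naive flies (log2 0.44 ± 0.08; edgeR adjusted p = 3.71e-06). It also rose in naive MB477 flies with RNAi, to 54.3 CPM against 47.7 CPM without (log2 0.19 ± 0.09; edgeR adjusted p = 0.0450), with libraries that overlap. Between naive MB477 flies at 47.7 CPM and naive MB131 flies at 45.4 CPM its change was 0.07 ± 0.09 (edgeR adjusted p = 0.516). With activation it rose in MB131 too, to 58.4 CPM in activated flies against 45.4 CPM in naive flies (log2 0.36 ± 0.08; edgeR adjusted p = 4.15e-04), where the change of Su(var)3-9 was 0.18 ± 0.26 (edgeR adjusted p = 0.700).

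**Figure D3:**
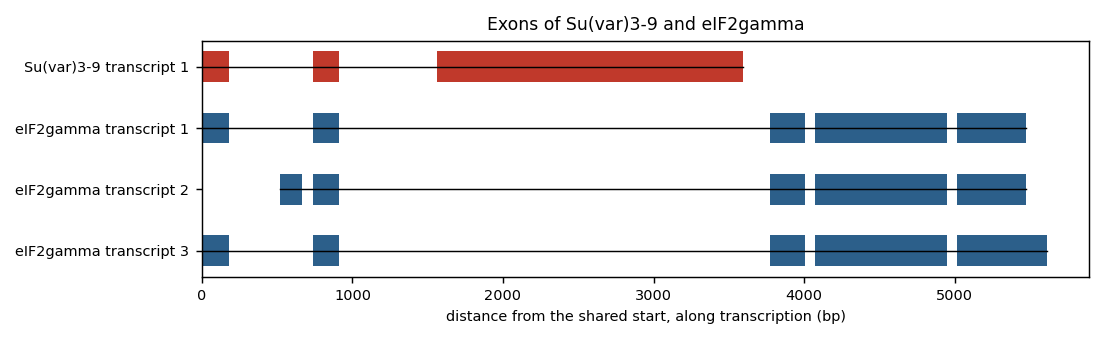
Exons (boxes) and introns (lines) of the annotated transcript of Su(var)3-9 in red and of the 3 transcripts of eIF2gamma in blue, against distance in bp from the shared start in the direction of transcription. The first 2 exons of Su(var)3-9, 352 bp in all, are also exons of eIF2gamma; its large last exon lies inside an intron of eIF2gamma.

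The third writer, egg (eggless, the fly SETDB1; FBgn0086908; 2R, 24775534 to 24779901, minus strand), methylates H3K9 mostly outside pericentric heterochromatin, on the fourth chromosome and at piRNA targets in the ovary. It fell after the activation protocol in flies without CsChrimson, which lack the channel, with 22.5, 17.4 and 18.4 CPM in activated libraries, against 25.8, 27.4 and 24.4 CPM in naive ones (log2 -0.41 ± 0.12, SE; edgeR adjusted p = 0.00756). It also fell in MB477 flies with Kdm4B RNAi, with 19.1, 22.6 and 19.5 CPM in activated libraries, against 25.5, 31.1 and 24.0 CPM in naive ones (log2 -0.39 ± 0.12; edgeR adjusted p = 0.00990). In neither genotype did activated and naive libraries overlap. The 95% intervals were 0.634 to 0.888 for the fold without CsChrimson and 0.643 to 0.904 for MB477 with RNAi. In MB131 (log2 -0.18 ± 0.12), MB131 with RNAi (-0.15 ± 0.12) and MB477 (0.16 ± 0.12) the changes did not pass the test. The call without CsChrimson was lost without its activated replicate 2 (adjusted p = 0.0732), and that in MB477 with RNAi without its naive replicate 2 (adjusted p = 0.131) or its activated replicate 1 (adjusted p = 0.0533).

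Between naive groups, egg was at 26.8 ± 3.73 CPM in MB477 flies with RNAi and 21.9 ± 1.27 CPM in those without (SD, n = 3; log2 0.29 ± 0.12, SE; edgeR adjusted p = 0.0340). Naive MB477 flies were also below naive MB131 flies, which had 26.7 ± 2.49 CPM (log2 -0.28 ± 0.12; edgeR adjusted p = 0.0384). Both calls were fragile. That of RNAi was lost without replicate 2 (adjusted p = 0.0545) or 3 (adjusted p = 0.112) of naive MB477 or replicate 2 of naive MB477 with RNAi (adjusted p = 0.262). That of line was lost without replicate 2 (adjusted p = 0.0600) or 3 (adjusted p = 0.122) of naive MB477 or replicate 2 (adjusted p = 0.0575) or 3 (adjusted p = 0.179) of naive MB131. An antisense RNA, asRNA:CR44067, overlaps 629 bp of the exons of egg and was at 7.26 CPM in naive MB477 flies and 4.06 CPM in naive MB131 flies. Whether counting used the strand is not given, so reads of the pair cannot be told apart.

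HP1a (FBgn0003607; 2L, 8209626 to 8211122, minus strand) is the reader of H3K9 methylation for which the HP1 family is named. It rose after the activation protocol in flies without CsChrimson, which lack the channel, with 59.3, 50.9 and 54.4 CPM in activated libraries, against 40.9, 51.6 and 44.9 CPM in naive ones (log2 0.26 ± 0.08, SE; edgeR adjusted p = 0.0171). Here the highest naive library exceeded the lowest activated one. It also rose in MB131 flies with RNAi, with 54.8, 51.2 and 53.8 CPM in activated libraries, against 44.6, 44.2 and 47.3 CPM in naive ones, without overlap (log2 0.23 ± 0.08; edgeR adjusted p = 0.0294). MB131 flies without RNAi had 52.1, 57.4 and 53.1 CPM when activated, against 51.3, 47.7 and 46.3 CPM when naive, a change of 0.16 ± 0.08 that did not pass (edgeR adjusted p = 0.163). In MB477 the change was 0.09 ± 0.08 and in MB477 with RNAi 0.00 ± 0.09, and neither passed. The call without CsChrimson was lost without naive replicate 1 (adjusted p = 0.186) or 3 (adjusted p = 0.0565) or activated replicate 1 (adjusted p = 0.140). That in MB131 with RNAi was lost without naive replicate 1 (adjusted p = 0.0882) or 2 (adjusted p = 0.0952), without activated replicate 1 (adjusted p = 0.0947) or 3 (adjusted p = 0.0774), with library totals in place of TMM scaling (adjusted p = 0.135), and with no filter on low counts (adjusted p = 0.0614). These 2 genotypes were called and the others not, but the differences between responses that were tested, of MB131 and of MB477 against no CsChrimson and of RNAi within each line, did not pass for HP1a (edgeR adjusted p = 0.237 or more).

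HP1c (FBgn0039019; 3R, 22745620 to 22746605, plus strand; 1 exon) is an HP1 protein found mostly in euchromatin, where in flies it works with the zinc finger proteins Woc and Row. It was at 16.3, 15.9 and 15.3 CPM in activated MB477 libraries, against 22.6, 17.5 and 23.2 CPM in naive ones (log2 -0.41 ± 0.14, SE; edgeR adjusted p = 0.00872), with each activated library below each naive one. That call was lost without naive replicate 1 (adjusted p = 0.0526) or 3 (adjusted p = 0.0591). Naive MB477 flies were above naive MB131 flies by a log2 difference of 0.31 ± 0.14 (edgeR adjusted p = 0.0441), with libraries that overlap. This was lost in 6 of the 12 alternatives, among them the omission of replicate 1 (adjusted p = 0.161) or 3 (adjusted p = 0.181) of naive MB477 or replicate 2 (adjusted p = 0.148) or 3 (adjusted p = 0.0945) of naive MB131. Under RNAi the naive lines differed the same way, with 15.9, 18.4 and 18.5 CPM in MB477 and 13.9, 14.2 and 12.0 CPM in MB131, without overlap (log2 0.39 ± 0.14; edgeR adjusted p = 0.0333). Leaving out replicate 2 (adjusted p = 0.108) or 3 (adjusted p = 0.114) of MB477 or replicate 1 (adjusted p = 0.0517) or 3 (adjusted p = 0.166) of MB131 ended that call. CG17141 overlaps 160 bp of the exon of HP1c on the other strand and was at 10.5 CPM in naive MB477 flies and 6.68 CPM in naive MB131 flies (log2 0.66 ± 0.22; edgeR adjusted p = 0.00805). Like HP1c it was lower in activated MB477 flies, at 6.88 CPM (log2 -0.61 ± 0.22, edgeR adjusted p = 0.0136). Between the naive lines under RNAi its change was -0.07 ± 0.23 (edgeR adjusted p = 0.888). Whether counting used the strand is not given, so reads of this pair cannot be told apart either.

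HP1b (FBgn0030082; X, 9081063 to 9082746, plus strand), the HP1 protein found in both heterochromatin and euchromatin, moved the other way in the same flies. It had 17.4, 17.5 and 16.6 CPM in activated MB477 libraries, against 11.7, 14.6 and 14.5 CPM in naive ones, without overlap (log2 0.34 ± 0.14, SE; edgeR adjusted p = 0.0356). This call was lost without replicate 1 of naive MB477 (adjusted p = 0.206), without replicate 1 (adjusted p = 0.0700) or 2 (adjusted p = 0.0755) of activated MB477, with library totals in place of TMM scaling (adjusted p = 0.0660) and in a fit of only these libraries (adjusted p = 0.0637). Naive MB477 flies were below naive MB131 flies, which had 22.9, 16.3 and 17.6 CPM, by a log2 difference of -0.48 ± 0.14 (edgeR adjusted p = 0.00254). Without replicate 1 of naive MB131, the highest of the 30 libraries for HP1b, the adjusted p was 0.0762.

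Su(var)3-7 (FBgn0003598; 3R, 13264364 to 13270038, plus strand), a zinc finger protein that binds HP1a and whose dose sets how strongly a variegating gene is silenced, varied least of the 7 in relation to its level. Its highest group mean was 70.5 ± 5.84 CPM in naive MB477 flies and its lowest 60.8 ± 2.98 CPM in activated MB131 flies with RNAi (SD, n = 3). No activation comparison called it, with log2 fold changes of -0.14 to 0.06. With library totals in place of TMM scaling, it was called lower in activated than in naive MB131 flies with RNAi (log2 -0.20; edgeR adjusted p = 0.0363). It fell in naive MB477 flies with RNAi, with 61.7, 59.8 and 61.6 CPM, against 75.7, 71.7 and 64.2 CPM in naive MB477 flies without RNAi (log2 -0.21 ± 0.08, SE; edgeR adjusted p = 0.0122), and no libraries overlapped. Without replicate 1 of naive MB477 that adjusted p was 0.110, and with library totals in place of TMM scaling 0.0571. TBC1D5, which shares 693 bp of exon with it on the opposite strand, fell in the same comparison, to 44.8 CPM with RNAi against 71.3 CPM without (log2 -0.67 ± 0.08, edgeR adjusted p = 1.67e-11). TBC1D5 was also called where Su(var)3-7 was not. Examples are activation in MB477 (log2 -0.25 ± 0.08, edgeR adjusted p = 0.00612) and naive MB477 against naive MB131 flies (log2 0.41 ± 0.08, edgeR adjusted p = 8.95e-06). Whether counting used the strand is not given, so reads of TBC1D5 and Su(var)3-7 cannot be told apart.

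Set out by comparison, activation called 0 of the 7 genes in MB131 with edgeR, where 24.5% of all genes were called. At an unadjusted p under 0.05 there were also 0, and DESeq2 called 0. It called 2 of the 7 without CsChrimson (21% of all genes), 1 in MB131 with RNAi (26.8%), 1 in MB477 with RNAi (28.7%) and 4 in MB477 (59.5%). Libraries of activated and naive flies did not overlap for 1 of the 7 genes without CsChrimson (32% of all genes), 3 in MB131 with RNAi (38.6%) and 2 without it (35.3%), and 2 in MB477 with RNAi (39.4%) and 5 without it (63.8%). The fold changes of the 7 genes in MB131, where none was called, had 95% intervals that together reached from 0.749 to 1.62.

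**Figure D4:**
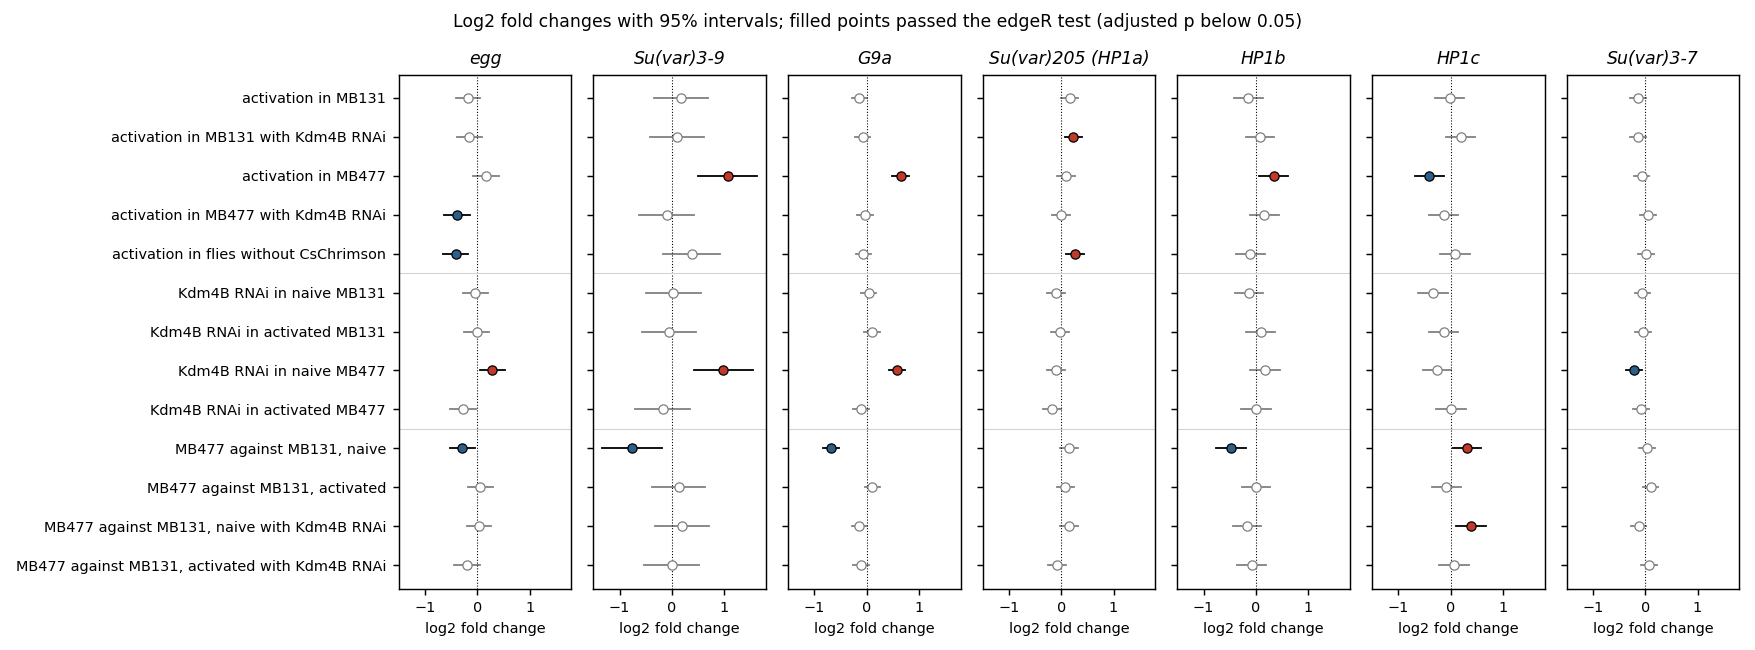
Log2 fold change of the first-named group over the other (points) with its 95% interval (lines) for each of the 7 genes in 5 activation, 4 RNAi and 4 line comparisons, from top to bottom. Filled points passed the edgeR test (red higher, blue lower); 13 of the 18 lie among the 21 points of the 3 comparisons with naive MB477 flies, in which 59.5% to 61.1% of all genes passed, and the largest of all is Su(var)3-9 in activated against naive MB477 flies (1.06).

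Kdm4B RNAi called 0 of the 7 genes in naive MB131 flies (11% of all genes were called), 0 in activated MB131 flies (11.5%) and 0 in activated MB477 flies (21.9%) with edgeR, and DESeq2 likewise called 0 in each. At an unadjusted p under 0.05 there were 1, 0 and 2, namely HP1c in naive MB131, and egg and HP1a in activated MB477. HP1c was at 13.4 ± 1.20 CPM in naive MB131 flies with RNAi and 16.9 ± 1.31 CPM without (log2 -0.33 ± 0.14; edgeR adjusted p = 0.128). In activated MB477 flies HP1a was at 50.4 ± 6.48 CPM with RNAi and 57.1 ± 2.88 CPM without (SD, n = 3; log2 -0.18 ± 0.09; edgeR adjusted p = 0.119), and passed once replicate 2 of the RNAi group was left out (adjusted p = 0.0180). In naive MB477 flies 4 of the 7 were called (61.1% of all genes), 3 of them higher with RNAi (30.6% of all genes were called higher) and 1 lower (30.5%). HP1c would have been called lower there too without replicate 2 of naive MB477 (log2 -0.38, edgeR adjusted p = 0.0273), against an adjusted p of 0.0979 with all libraries.

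Between the lines, 5 of the 7 were called among naive flies without RNAi (60.5% of all genes): 1 was higher in naive MB477 than in naive MB131 flies (29% of all genes) and 4 lower (31.6%). Among activated flies edgeR called 0 (29.3% of all genes), with 0 at an unadjusted p under 0.05 and 0 by DESeq2. With RNAi it called 1 of the 7 among naive flies (22.8%) and 0 among activated flies (32.2%), the last again with 0 at an unadjusted p under 0.05 and 0 by DESeq2. In the 2 comparisons of activated flies the intervals of the 7 fold changes together reached from 0.692 to 1.56. All comparisons that involve naive MB477 flies share the same 3 libraries. In those libraries Kenyon cell markers were lower than in naive MB131 flies for 10 of 12 genes and muscle markers higher for 9 of 10, and the part of such shifts in the levels above was not tested.

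Differences between responses were tested as interactions. In MB477 the response to activation differed with RNAi for 3 of the 7 genes (51.6% of all genes): egg by a log2 difference of -0.56 ± 0.17 (edgeR adjusted p = 0.00479), Su(var)3-9 by -1.16 ± 0.39 (adjusted p = 0.00854) and G9a by -0.69 ± 0.11 (adjusted p = 4.96e-08). In MB131 it did so for 0 (6.06% of all genes) with edgeR, with 0 at an unadjusted p under 0.05 and 0 by DESeq2. The response of MB477 differed from that of flies without CsChrimson for 3 of the 7 (46.7% of all genes): egg by 0.58 ± 0.17 (adjusted p = 0.00349), G9a by 0.71 ± 0.11 (adjusted p = 1.93e-08) and HP1c by -0.49 ± 0.20 (adjusted p = 0.0369). The call of HP1c was lost when any of 7 libraries was left out, with an adjusted p of up to 0.185, without activated replicate 1 of the flies without CsChrimson. For Su(var)3-9 the difference of 0.69 ± 0.39 passed only without activated replicate 3 of those flies (adjusted p = 0.0482). That of HP1b, 0.44 ± 0.20, passed with DESeq2 (adjusted p = 0.0459) but not with edgeR (adjusted p = 0.0625). The response of MB131 differed from that without CsChrimson for 0 of the 7 (6.23% of all genes) with edgeR, again with 0 at an unadjusted p under 0.05 and 0 by DESeq2. These interactions share the libraries of the responses they set against each other.

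Other genes of the pathway were described from 5 lists that hold 40 genes, 36 of them tested. In activated against naive flies without CsChrimson, 5 of the 36 were higher and 1 lower, where 11.1% of all genes were higher and 9.98% lower. In MB131 it was 7 and 2 (12.7% and 11.8% of all genes), and with RNAi 6 and 1 (13.8% and 13%). In MB477 it was 19 and 6 (31.8% and 27.7%), and with RNAi 3 and 9 (15.6% and 13.1%). Under Kdm4B RNAi, 1 of the 36 was called in naive MB131, 1 in activated MB131, 2 in activated MB477 and, in naive MB477, 18 higher and 5 lower (2.78%, 2.78%, 5.56% and 63.9% of the 36). Of all genes 11%, 11.5% and 21.9% were called in the first 3 of these, and in naive MB477 30.6% were higher and 30.5% lower. Sirt1, a deacetylase of histones and other proteins that is a variegation modifier in flies, rose in each of the 5, most in MB477, to 133 CPM in activated flies against 44.5 CPM in naive flies (log2 1.58 ± 0.07; edgeR adjusted p = 1.90e-40). In the other 4 its log2 fold changes lay between 0.35 and 0.53. HP4, which encodes a protein that binds HP1a, also rose in each of the 5, by 0.48 to 0.99 on the log2 scale. Without CsChrimson HP4 stood at 11.3 CPM in activated flies and 6.13 CPM in naive flies (log2 0.88 ± 0.19; edgeR adjusted p = 2.11e-04). JIL-1, the kinase of H3 serine 10 that keeps heterochromatin from spreading, fell in each of the 5, most in MB477, to 93.1 CPM in activated flies against 181 CPM in naive flies (log2 -0.96 ± 0.06; edgeR adjusted p = 2.60e-28). In the other 4 its log2 fold changes lay between -0.39 and -0.17.

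**Figure D5:**
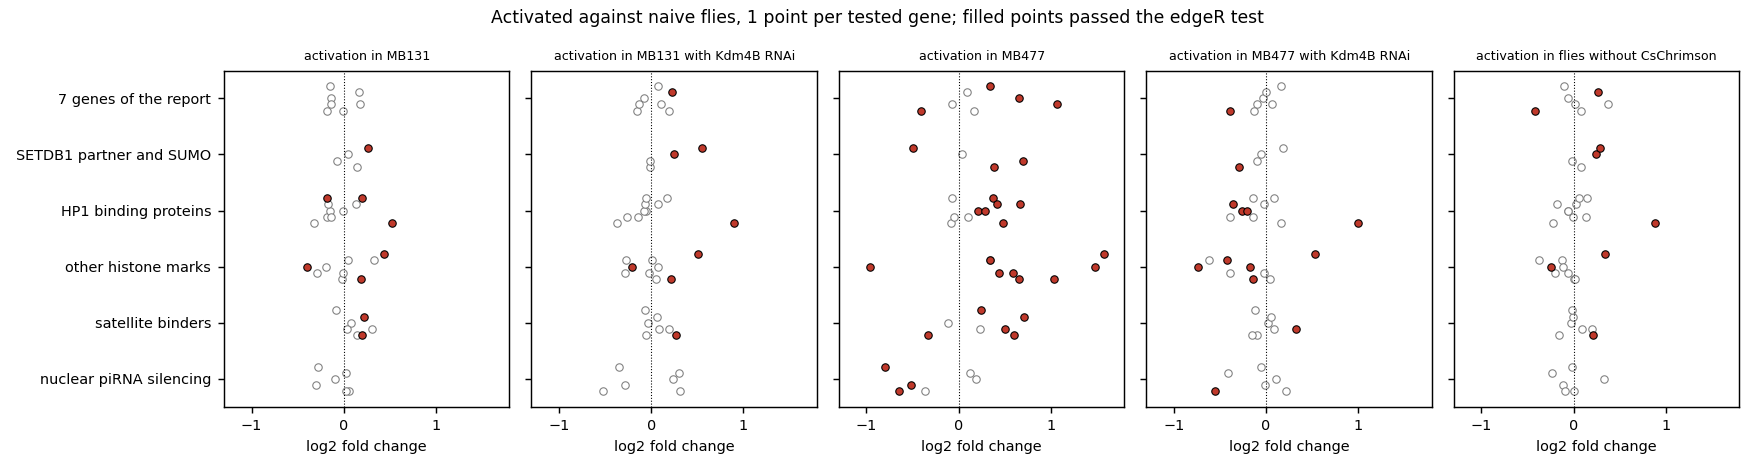
Log2 fold change of activated over naive flies (horizontal axes) for the 7 genes and for 5 lists of related genes (rows), 1 point per tested gene and 1 panel per genotype; filled points passed the edgeR test. The spread is widest in MB477, where Sirt1 (1.58) is farthest to the right; the 7 genes reach from -0.41 to 1.06 there.

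Among the enzymes that take H3K9 methylation off, Kdm4A was measured well enough to compare. It had 13.1, 10.96 and 14.5 CPM in activated MB477 libraries, against 5.50, 2.47 and 6.03 CPM in naive ones (log2 1.48 ± 0.20; edgeR adjusted p = 1.22e-10), and 17.3, 12.7 and 17.6 CPM in naive MB477 libraries with RNAi (log2 1.79 ± 0.19 against no RNAi; adjusted p = 4.26e-14). Naive MB131 libraries held 14.4, 13.99 and 16.9 CPM. The naive MB477 libraries were thus the lowest of the 30 for Kdm4A, as they were for G9a. In MB477 with RNAi it fell with activation instead, to 9.52 CPM in activated flies against 15.9 CPM in naive flies (log2 -0.73 ± 0.18; edgeR adjusted p = 4.83e-04).

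Of wde, the fly partner of egg, and 3 genes of the SUMO pathway, 2 were lower and 1 higher in naive MB477 than in naive MB131 flies. Su(var)2-10, a SUMO ligase, was at 72.3 CPM in naive MB477 and 144 CPM in naive MB131 flies (log2 -0.99 ± 0.06; edgeR adjusted p = 4.06e-28), while smt3, which encodes SUMO itself, was at 92.3 CPM in naive MB477 and 51.7 CPM in naive MB131 flies (log2 0.84 ± 0.09; adjusted p = 2.24e-14). Of 10 tested HP1 relatives and HP1 binding proteins 7 were lower and 0 higher in this comparison (median log2 -0.33). Examples are XNP, the fly ATRX remodeller, at 51.6 CPM in naive MB477 and 74.3 CPM in naive MB131 flies (log2 -0.53 ± 0.08; adjusted p = 1.41e-09), and row, whose protein works with HP1c, at 40.6 CPM in naive MB477 and 56.9 CPM in naive MB131 flies (log2 -0.49 ± 0.09; adjusted p = 5.06e-07). Of 9 tested genes of other histone marks 7 were lower and 1 higher (median -0.73). Of 7 satellite binding proteins 3 were lower and 1 higher. Of 6 genes listed for nuclear piRNA silencing 0 were lower and 2 higher, piwi (log2 0.58 ± 0.18, edgeR adjusted p = 0.00286) and Nxt1 (log2 0.58 ± 0.21, edgeR adjusted p = 0.0130). Of all genes 31.6% were lower and 29% higher. The other 4 of the 40 listed genes were not tested. HDAC3 was listed at 0 in all 30 libraries, and rhi, HP1e and HP6, relatives of HP1 known from the germline, had at most 10, 6 and 12 reads in any library.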

How the data were processed

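Read counts per gene, whole numbers, were used as the authors deposited them (17559 genes, 30 libraries). STAR, HTSeq and DESeq2 are the tools and dm6 the genome build named in the submitters' processing notes, with no versions; how strand and multiply mapping reads were treated is not given in the sources used here. A deposited table of the authors' comparisons was not used here. Counts were analysed in R 4.3.3 with edgeR 4.0.16: filterByExpr (minimum count 10, minimum total 15) kept 11457 genes, TMM factors scaled the libraries, and all 30 libraries entered one model with a mean per group. Each comparison was tested with the quasi-likelihood F test in either direction and called at a Benjamini-Hochberg adjusted p under 0.05; SE is the absolute log2 change divided by the square root of F. The script recovered 96 of 100 genes changed 2-fold and 46 of 100 changed 1.25-fold in counts simulated for activation in MB131 over 11171 genes, and called 8 unchanged ones. The changed genes were drawn only from those above a floor on mean count. Kdm4B, with 2 to 26 reads a library, lay below it, so these rates do not cover it. Levels are CPM on TMM-scaled totals, as mean ± SD over 3 libraries.

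Positions and exon lengths were taken from Ensembl's BDGP6 annotation, the assembly that dm6 names, in which 17253 identifiers were found. The genes named are the 7 (HP1a under the table's FBgn0003607), eIF2gamma, Kdm4A, Kdm4B, and per list and comparison up to 2 called genes of largest change; genes that overlap the 7, and Sirt1, HP4 and JIL-1 across comparisons, were named after their values were seen, as were Fbp1, HDAC3, rhi, HP1e and HP6. The 7 genes, the lists and the tests were chosen with earlier results of these data known. Replicate pairs differed by more than sampling noise (chi-square per degree of freedom 2.84 to 6.90 over 30 pairs). Same-numbered libraries did not deviate together (r from -0.03 to 0.06 over 39 pairs), so no replicate block was used. Alternatives were DESeq2 1.42.0, library totals in place of TMM factors, no filter, only the groups compared, the block and leaving out each library.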

Additional observations from a re-analysis of the deposited data

Results flagged for a closer look

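Responses to activation differed between genotypes for 6 pairs of gene and contrast, each by the interaction test of edgeR. In MB477, the response with Kdm4B RNAi minus the response without was -0.56 for egg, -1.16 for Su(var)3-9 and -0.69 for G9a on the log2 scale. The response of MB477 minus the response of flies without CsChrimson was 0.58 for egg, 0.71 for G9a and -0.49 for HP1c. For G9a, the response was -0.04 in MB477 with RNAi, 0.65 in MB477 and -0.06 without CsChrimson. For egg, it was -0.39 in MB477 with RNAi, 0.16 in MB477 and -0.41 without CsChrimson. Each of the 6 rests on the 3 naive MB477 libraries, which stood apart from the other 27 on the first principal component. Such a difference was called for 51.6% of all genes in the RNAi contrast and for 46.7% in the contrast with no CsChrimson. In the matching contrasts of MB131, 0 of the 7 genes were called, where 6.06% and 6.23% of all genes were called.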

How the results depend on the processing

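Of 1596 values of the 7 genes under alternative settings, 1541 kept their side of the threshold, 50 lost and 5 gained a call. Of values called in the fit reported above, 0 changed direction; of those not called, 70 changed sign, to at most 0.29 from 0 on the log2 scale. With no filter on low counts, 0 of the 7 genes were called for activation in MB131 with RNAi and 0 for MB477 against MB131 in naive flies with RNAi (1 each with the filter); the cause was not tested. Without the naive MB477 libraries, 2 of the 7 differed among groups, against 67.3% of all genes. Leaving out 1 library at a time gave 0 to 1 called genes of the 7 for activation in MB131 with RNAi (2624 to 2796 of all tested genes). In MB477 it gave 2 to 4 (6278 to 6511 of all), in MB477 with RNAi 0 to 1 (2791 to 3001) and without CsChrimson 1 to 2 (1996 to 2184). For RNAi in activated MB477 it gave 0 to 1 (1935 to 2207). For MB477 against MB131 in naive flies it gave 2 to 4 (6460 to 6678), and 0 to 1 with RNAi (2191 to 2332). For RNAi in naive MB131 it gave 824 to 1245 called genes of all tested, against 1265 with every library; the lowest was without naive MB131 replicate 1. The replicate block changed no call of the 7 genes; with this pairing by number, activation in MB477 called 6793 genes. Depth limits Su(var)3-9 (16 to 92 reads a library) and Kdm4B (2 to 26).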

Other observations

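Across the 30 libraries the log2 CPM of the 7 genes did not move as a block. Pearson r over the 21 pairs of these genes ran from -0.598 to 0.559, and over the 27 libraries without naive MB477 from -0.293 to 0.254; the points share libraries, depth and group structure. The tested genes whose log2 CPM was most like that of G9a over 30 libraries were CG8334 (r = 0.925) and Thd1, a thymine DNA glycosylase gene (r = 0.922). Without naive MB477 they were CG3632 (r = 0.696) and Cnot4 (r = 0.669). For HP1a they were CG30349 (r = 0.751) and Aats-thr (r = 0.732) over 30 libraries, and Ggamma1, a G protein subunit gene (r = 0.825), and Vha68-1, a proton pump subunit gene (r = 0.811), over 27. For HP1b, CG5888 was the most like over both sets (r = 0.805 over 30 and 0.674 over 27), as was dalao, a gene of the Brahma remodelling complex, for Su(var)3-9 (r = 0.743 and 0.672). For egg, shd stood first over 30 libraries (r = 0.712) and next after CG11168 over 27 (r = 0.742 and 0.753). All these genes were picked for the highest r among the tested genes, so the size of r is no evidence of a link. The 27 libraries are among the 30, so a gene named for both sets is not separate support.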
